A study of Homo sapiens with 7 samples.

Results

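The genes described here encode the proteins of the mitochondrial ribosome, and they were taken as every listed symbol made of MRPL or MRPS, a number and at most 1 letter from A to C. The 6 messenger RNA libraries listed 15659 gene symbols, and 78 of them met this rule, 49 for the large subunit (MRPL) and 29 for the small subunit (MRPS). All libraries came from HCT116, a human colorectal carcinoma line, in which DROSHA, the nuclear enzyme that starts microRNA maturation, had been knocked out in both groups. Of the libraries, 3 were from cells that received a control miRNA and 3 from cells that received miR-148a-3p, and RNA was taken 48 h after transfection. The labels say neither whether the knockout line is 1 clone nor whether replicates were separate cultures, so the spread between libraries may be technical.

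Mitochondrial ribosomes translate the messages that mitochondrial DNA encodes, all of them for subunits of the oxidative phosphorylation complexes. Their RNA comes from the mitochondrial genome, but every protein is encoded in the nucleus, made in the cytosol and imported. Some of the proteins descend from those of bacterial ribosomes, and others were added in mitochondria. The small subunit reads the message, and the large subunit joins amino acids and holds the exit tunnel to the inner membrane.

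The microRNA given to the cells is shown because its seed, bases 2 to 8 and in capitals here, is the part that pairs with target messages. The sequence is the RefSeq entry (GRCh38.p14, chr7:25949922-25949943, minus strand), 5′ to 3′.
miR-148a-3p: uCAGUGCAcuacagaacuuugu
Untranslated regions of the mitochondrial ribosomal genes were not analysed here, so no count of seed matches is given.

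The libraries held 630142 to 1564125 counts over 12448 to 13849 genes, the smallest being miR-148a-3p replicate 3 and the largest miR-148a-3p replicate 1. Libraries were primed at the poly(A) tail, so levels are given as CPM (counts scaled to library size with TMM normalisation) without division by gene length. Control replicate 1 (−31.4) and miR-148a-3p replicate 3 (34.2) lay at the ends of the first principal component, which held 29.8% of the variance. Of 12 colon epithelium markers 8 were counted, with KRT18 the highest at 1155 CPM in the control group, while KRT20, CDX1, CDH17 and LGR5 were at 0. Of 12 blood cell markers 3 were counted, summing to at most 7.71 CPM in any library. Of 10 fibroblast and endothelium markers 6 were counted, summing to 59.5 to 91.5 CPM in the control and 55.6 to 100.4 CPM under miR-148a-3p, with COL1A2, DCN, LUM and CDH5 at 0. The mean level of DROSHA was 22.2 CPM in control libraries and 17.4 CPM under miR-148a-3p, which checks neither the knockout nor the labels, since reads lie near the 3' end and the deleted part is not given.

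At baseline, in cells given the control miRNA, mitochondrial ribosomal messages were of middling abundance, and small subunit messages had higher levels per gene than large subunit ones. The median over the 78 genes was 60.6 CPM, against 44.8 CPM over the 8921 genes that passed the filter on low counts. The 82 cytosolic ribosomal protein genes had a median of 1194 CPM and the 79 nuclear-encoded subunits of the respiratory chain and ATP synthase one of 139 CPM. All 78 genes together made up 0.535%, 0.591% and 0.549% of the counts in control replicates 1, 2 and 3. With miR-148a-3p the shares were 0.585%, 0.603% and 0.615%. The second control library lay within the range of the treated ones, so the groups overlapped. In bulk libraries like these, fewer cells with a message and less message per cell cannot be told apart.

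**Figure D1:**
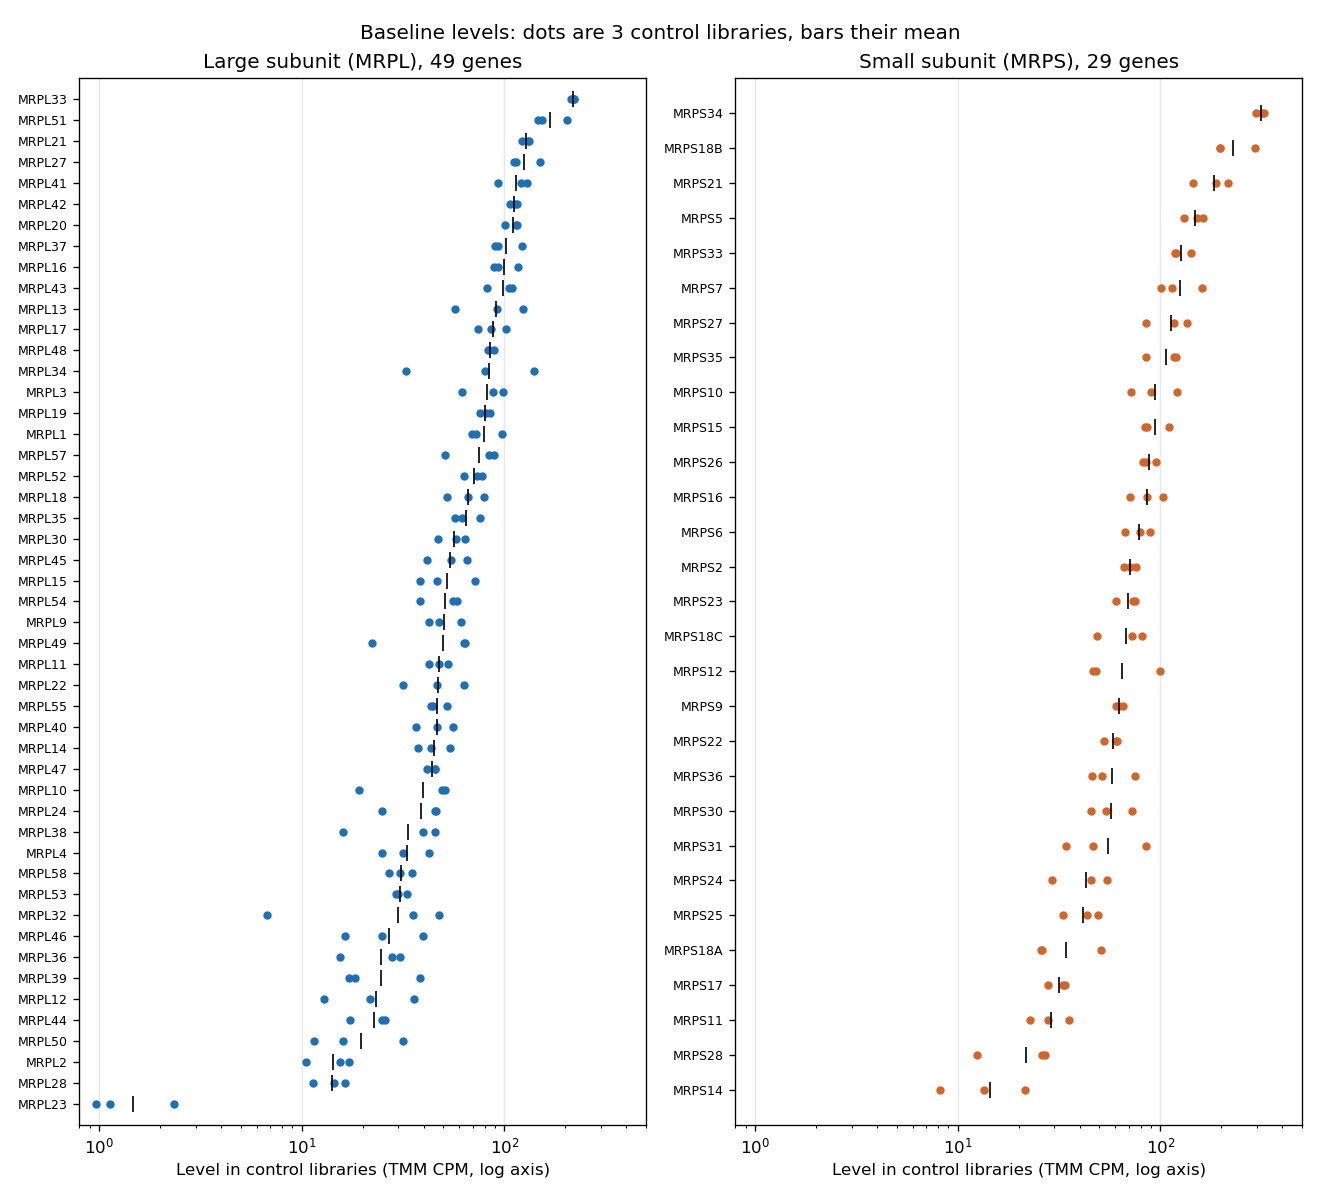
Level of each mitochondrial ribosomal gene in the 3 control libraries, in TMM-normalised CPM on a log axis, with large subunit genes on the left and small subunit genes on the right. Dots are libraries and black bars are means. MRPS34 has the highest mean at 313 CPM and MRPL23 stands apart at 1.48 CPM.

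The small subunit held the most abundant messages of the family. MRPS34, a protein that only mitochondrial ribosomes have, was measured at 327, 317 and 296 CPM in the control and at 278, 276 and 319 CPM with miR-148a-3p. It was first of the 78 genes in the control group at 313 ± 15.8 CPM (SD, n = 3), a level above 94.0% of all genes tested. MRPS18B followed with 295, 197 and 197 CPM in the control and 179, 222 and 239 CPM with miR-148a-3p, so that control replicate 1 stood above the other 2. MRPS21, the counterpart of bacterial S21, was at 144, 216 and 189 CPM in the control, where replicate 1 was the lowest, and at 215, 222 and 211 CPM with the microRNA. MRPS5, the counterpart of the bacterial protein S5 at the message entry channel, was at 163, 152 and 131 CPM in the control. With miR-148a-3p it was at 171, 115 and 186 CPM, and the groups overlapped. These 4 genes carried 34.1% of the summed level of the 29 small subunit genes.

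Among large subunit genes, MRPL33 was the highest and the most even. It is the counterpart of bacterial L33 and was at 222, 214 and 219.5 CPM in the control libraries, a coefficient of variation of 1.91%. With miR-148a-3p it was at 207, 206 and 272 CPM, below the control range in 2 libraries and above it in replicate 3. MRPL51, a protein added in mitochondria, was at 154, 146 and 205 CPM in the control and at 195, 190.5 and 188 CPM with miR-148a-3p. MRPL21 was at 131, 133 and 122 CPM in the control and at 154, 147.9 and 161 CPM with miR-148a-3p, and the groups did not overlap. MRPL27, whose bacterial counterpart reaches toward the peptidyl transferase centre, was at 114, 149 and 111 CPM in the control and at 168, 135 and 189 CPM with the microRNA, with 1 value of each group inside the other's range. These 4 genes carried 20.4% of the summed level of the large subunit, a smaller share than the leading 4 held in the small subunit, over more genes.

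At the low end, levels rested on few reads. MRPS14, the counterpart of bacterial S14, was the lowest small subunit gene, with 14, 7 and 19 reads in the control libraries. MRPS28 was measured at 12.5, 26.8 and 26.2 CPM in the control and at 13.8, 14.2 and 26.3 CPM with miR-148a-3p. MRPS11, the counterpart of bacterial S11, was at 35.6, 28.0 and 22.8 CPM and then at 36.3, 47.3 and 24.7 CPM. The groups of both genes overlapped. MRPS17, the counterpart of bacterial S17, was at 33.7, 28.0 and 33.0 CPM in the control and at 32.3, 42.6 and 26.3 CPM with the microRNA, again with overlap.

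The lowest large subunit genes that passed the filter were MRPL28, MRPL2, MRPL50 and MRPL44. MRPL28, the counterpart of bacterial L28, was at 14.4, 16.3 and 11.4 CPM in the control and at 17.8, 34.3 and 14.8 CPM with miR-148a-3p. MRPL2, whose bacterial counterpart is a conserved protein near the peptidyl transferase centre, was at 15.4, 10.5 and 17.1 CPM and at 9.89, 15.4 and 4.94 CPM. The groups overlapped for both. MRPL44, which is related in sequence to ribonuclease III, was at 17.3, 25.7 and 25.03 CPM and at 29.001, 13.0 and 19.8 CPM, with treated values on both sides of the control ones. From the highest to the lowest tested gene the control mean spanned 15.5-fold in the large and 21.7-fold in the small subunit.

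MRPL23 was the 1 gene of the 78 that did not pass the filter. It encodes the counterpart of bacterial L23, at the mouth of the exit tunnel, and had 1, 2 and 1 reads in the control and 5, 3 and 0 reads under miR-148a-3p. Its RefSeq span (chromosome 11, 1947332 to 2014944) overlaps 5 other annotated genes, among them H19 and MRPL23-AS1. How the authors assigned reads in shared regions is not given in the sources used here, so the low count may not stand for a low level.

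In the order of control means, 75 of the 77 neighbouring pairs had control values that overlapped. Ranks are therefore loose except at the extremes. Between these, 18 large and 14 small subunit genes lay from 50 to 100 CPM, and 15 large and 5 small from 25 to 50 CPM. Above 100 CPM stood 8 genes of each subunit. Over the tested genes, the median coefficient of variation among control libraries was 19.2% for the large and 19.7% for the small subunit, against 22.5% for all genes tested. The tested members also had a higher control median than all genes tested (62.9 against 44.8 CPM), and levels were not matched.

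Summed over genes, the large subunit exceeded the small one in 6 of 6 libraries. The large subunit came to 2806, 3380 and 3243 CPM in the control and 3354, 3425 and 3617 CPM with miR-148a-3p. The small subunit came to 2707, 2664 and 2323 CPM and to 2681, 2580 and 2766 CPM. Control replicate 1 stood apart, with the lowest large subunit sum of the 6 libraries. The small subunit's share of the total was 49.1%, 44.1% and 41.7% in the control and 44.4%, 43.0% and 43.3% under miR-148a-3p. The treated libraries thus lay inside the range of the controls, which spread over more than their group difference (45.0% ± 3.77 against 43.6% ± 0.755, SD, n = 3).

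Per gene the order was the other way round, and the median small subunit gene was above the median large subunit gene in 6 of 6 libraries. The large subunit medians were 42.4, 61.8 and 54.6 CPM in the control and 59.3, 66.3 and 57.6 CPM with miR-148a-3p. The small subunit medians were 76.1, 81.7 and 67.1 CPM and 78.4, 78.1 and 79.0 CPM. From control means, the medians were 50.9 and 69.4 CPM, a ratio of 1.36. Genes are not replicates and share these libraries, so no test was made of this difference.

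**Figure D2:**
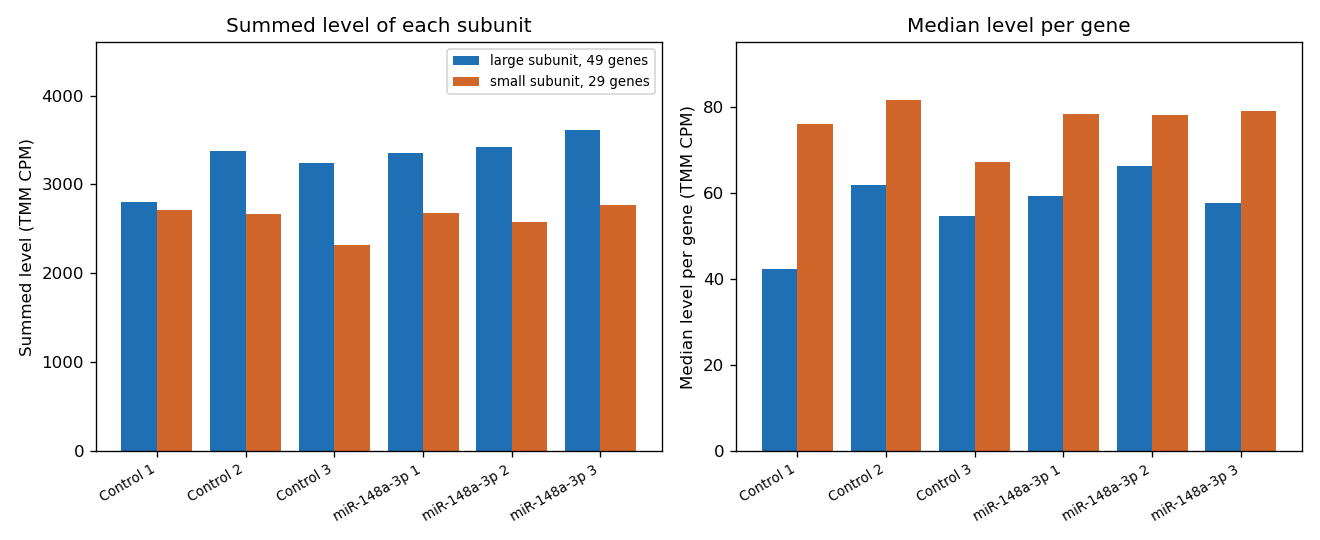
Summed level (left) and median level per gene (right) of the large and small subunit genes in each library, in TMM-normalised CPM. The large subunit is higher in sum and the small subunit higher per gene in each of the 6 libraries, and control replicate 1 has the lowest large subunit bars.

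Control replicate 1, at one end of the first principal component, held the subunits in unequal measure. Of the 49 large subunit genes, 27 had their lowest control value in replicate 1, and 28 had their highest in replicate 2. Of the 29 small subunit genes, 18 had their lowest control value in replicate 3, and 6 in replicate 1. MRPL32, picked here after its values were seen, was the widest case among tested genes, at 6.74, 47.8 and 35.3 CPM in the control libraries. MRPL34 spread from 32.7 CPM in replicate 1 to 139.9 CPM in replicate 3. What set control replicate 1 apart was not tested.

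Subunit names by symbol do not match the structure of the ribosome in every case. RefSeq lists MRPS30 as mL65 and MRPS18A as mL66, names of large subunit proteins, and it lists MRPS36 as KGD4, a protein of the 2-oxoglutarate dehydrogenase complex. MRPS30 was at 53.9, 72.3 and 45.5 CPM in the control and at 84.4, 78.1 and 56.0 CPM with miR-148a-3p. MRPS36 was at 46.2, 51.3 and 75.1 CPM and at 69.9, 46.1 and 60.9 CPM. Both lay near the middle of the family and their groups overlapped. With MRPS30 and MRPS18A counted as large and MRPS36 left out, the control medians became 50.9 CPM for 51 large and 74.6 CPM for 26 small subunit genes, a ratio of 1.47.

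The 3 paralogues of bacterial S18 were all counted, and they are known to sit in different places in the ribosome. MRPS18C (bS18 in RefSeq) holds the bacterial position and was at 72.2, 81.7 and 48.9 CPM in the control and 52.1, 47.3 and 65.9 CPM with miR-148a-3p. MRPS18B (mS40) was the most abundant of them in each of the 6 libraries, as given above. MRPS18A was the lowest in each, at 51.0, 25.7 and 26.2 CPM and then 35.6, 39.0 and 19.8 CPM. The log2 differences were −0.12 (SE 0.20) for MRPS18B, −0.10 (SE 0.35) for MRPS18A and −0.31 (SE 0.27) for MRPS18C, with edgeR adjusted p-values of 0.937, 0.966 and 0.872.

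Proteins with other roles include MRPL12 and MRPL58, both of low abundance here. MRPL12, the stalk protein that recruits translation factors, was at 35.6, 12.8 and 21.6 CPM in the control and 33.0, 35.5 and 51.0 CPM with miR-148a-3p. Control replicate 1 lay among the treated values. Its log2 difference was 0.72 (SE 0.37, edgeR adjusted p = 0.726). MRPL58, a peptidyl-tRNA hydrolase built into the large subunit, was at 27.0, 35.002 and 30.7 CPM and at 40.9, 21.3 and 49.4 CPM, with treated values above and below the controls.

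The comparison of miR-148a-3p with the control miRNA asked which messages differ when this microRNA is supplied. None of the 77 tested mitochondrial ribosomal genes passed the threshold, an edgeR adjusted p below 0.05 over all genes tested, where 0.0112% of the 8921 genes did. The smallest edgeR adjusted p in the family was 0.538. DESeq2 and limma-voom called 2 and 3 of the 8921 genes, and 0 of the 77. At an unadjusted p below 0.05, edgeR had 4 of the 77 genes higher and 0 lower, against 3.40% of all genes in each direction, and DESeq2 had 1 and limma-voom 4 in either direction. Treated and control values were separate for 9 genes on the higher side and 1 on the lower, where the shares over all genes were 6.22% and 6.59%. Those higher were MRPL21, MRPL24, MRPL41, MRPL47, MRPL48, MRPS2, MRPS9, MRPS14 and MRPS26, and the lower one was MRPL20. The genes share their libraries, and no test was made of these counts.

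The fitted values leaned upward without single genes passing. Of the 77 genes, 48 had a fitted value above 0 (62.3%), against 49.5% of all genes tested, and the median log2 difference was 0.15 against −0.0039. The large subunit had 31 of 48 above 0 and a median of 0.16, the small subunit 17 of 29 and a median of 0.10. The difference between the subunit medians, small minus large, was −0.06. Within single libraries, the small minus large median deviation from the mean over all libraries had an SD of 0.21 over the controls. That is another measure, so it does not give the spread of the difference between groups. Leaving out 1 library left 46 to 53 of 77 genes above 0. Without both libraries at the ends of the first principal component, a choice made after the data were seen, 40 of 77 were above 0 (51.9%, against 50.9% of all genes) and the median was 0.02.

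**Figure D3:**
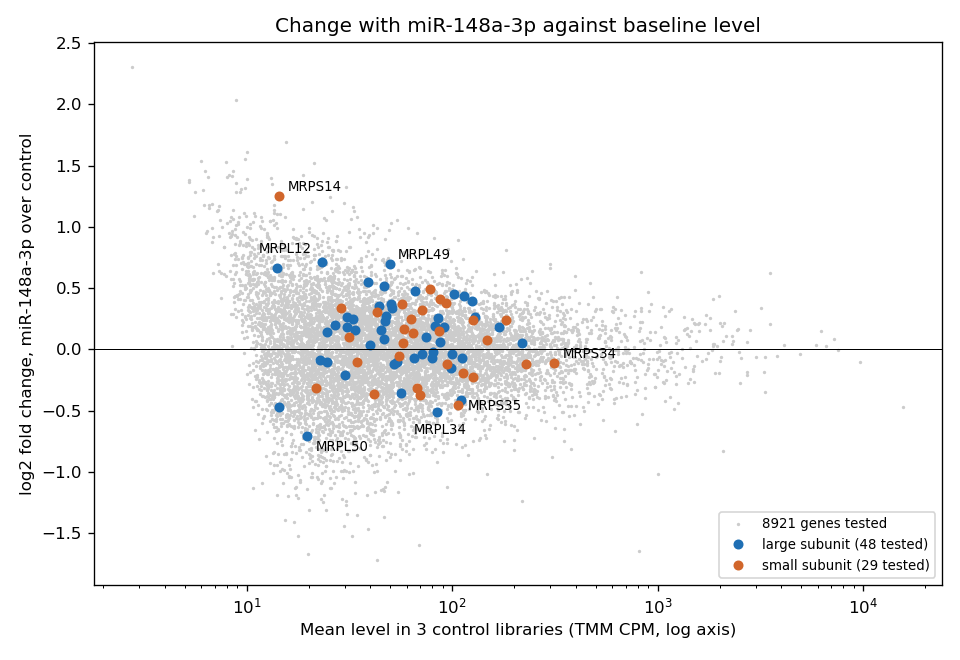
Log2 fold change with miR-148a-3p against the mean level in the control libraries (TMM CPM, log axis) for the 8921 genes tested, with large subunit genes in blue and small subunit genes in orange. The coloured points lie within the grey cloud, with MRPS14 the highest at 1.25 and MRPL50 the lowest at −0.71.

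By library, the median deviation of the 77 genes from their mean over all 6 libraries, on the log2 scale, was −0.15, 0.04 and −0.08 in the control. It was 0.06, 0.04 and 0.09 with miR-148a-3p. Control replicate 2 lay at the level of the treated libraries, and control replicate 1 was the lowest. The large subunit gave −0.25, 0.07 and −0.03 in the control and 0.05, 0.06 and 0.09 with the microRNA. The small subunit gave −0.0045, −0.02 and −0.17, and then 0.12, 0.03 and 0.09. In the large subunit the low control library was replicate 1, and in the small subunit it was replicate 3.

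MRPS14 had the smallest p of the family. It was at 13.5, 8.17 and 21.6 CPM in the control and at 28.3, 22.5 and 56.0 CPM with miR-148a-3p, from 43, 19 and 34 reads. All treated values were above all control values, but the lowest treated and the highest control value lay close together. Its log2 difference was 1.25 (SE 0.44, 95% interval 0.36 to 2.14, edgeR adjusted p = 0.538).

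The next smallest p-values also belonged to genes with positive fitted values. MRPL49, a protein found only in mitochondrial ribosomes, was at 22.2, 63.0 and 63.7 CPM in the control and 74.5, 100.6 and 62.6 CPM with miR-148a-3p. The low value of control replicate 1 stood apart, and treated replicate 3 lay just below the other 2 controls. Its log2 difference was 0.70 (SE 0.31, edgeR adjusted p = 0.706), and it was 0.33 without control replicate 1. MRPL41, also specific to mitochondria, was at 93.4, 129.5 and 121 CPM in the control and at 151, 176 and 137 CPM with the microRNA, without overlap (0.44, SE 0.21, edgeR adjusted p = 0.725). MRPL37, another such protein, was at 93.4, 89.8 and 123 CPM and at 109, 145.5 and 171 CPM, with overlap (0.46, SE 0.22, edgeR adjusted p = 0.726).

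MRPS6, the counterpart of bacterial S6, was at 79.0, 88.7 and 67.1 CPM in the control libraries and at 136, 105 and 82.3 CPM with miR-148a-3p. Treated replicate 3 lay among the controls. The log2 difference was 0.49 (SE 0.24, edgeR adjusted p = 0.725). The span of MRPS6 overlaps that of SLC5A3, a tested gene for an inositol transporter, over 32683 bp, and how reads in the shared stretch were counted is not given in the sources used here.

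On the lower side no gene had an unadjusted p below 0.05. MRPS35, specific to mitochondria, was at 117, 119 and 85.3 CPM in the control libraries and at 92.3, 61.5 and 79.0 CPM with miR-148a-3p (−0.45, SE 0.24, edgeR adjusted p = 0.726). The third control library lay among the treated ones. MRPL20, whose bacterial counterpart binds ribosomal RNA early in assembly, was at 115, 100.3 and 116 CPM in the control and at 71.2, 89.9 and 90.5 CPM with the microRNA. It was the 1 gene of the family lower in every treated library than in any control library (−0.41, SE 0.22, edgeR adjusted p = 0.726).

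The lower side was completed by 3 further genes. MRPL34, the counterpart of bacterial L34, was at 32.7, 80.5 and 139.9 CPM in the control and at 56.7, 67.4 and 51.0 CPM with miR-148a-3p, all treated values lying inside the wide control range. MRPS23, which mitochondria added to the small subunit, was at 73.2, 74.7 and 60.3 CPM and at 49.4, 62.7 and 49.4 CPM, with a small overlap. MRPL50, added to the large subunit, was at 11.6, 31.5 and 15.9 CPM and at 13.2, 11.8 and 9.88 CPM, where control replicate 2 set the higher control mean. Their log2 differences were −0.51 (SE 0.33), −0.37 (SE 0.26) and −0.71 (SE 0.49), and edgeR adjusted p-values were 0.786, 0.807 and 0.807.

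The precision of these data bounds what could have been seen. The 95% interval of the log2 fold change held 0 for 73 of the 77 genes and lay wholly between −1 and 1 for 63 of them. It lay between −0.5 and 0.5 for 3 genes. MRPS34, the most abundant, had −0.11 with an interval from −0.47 to 0.25, and MRPL33 had 0.06 with an interval from −0.33 to 0.44. A missed threshold therefore does not show that a gene was the same in both groups. The intervals rest on the reads per gene, the spread between libraries and the 3 libraries a group, whose parts were not separated.

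Split by origin, 3 of the 4 classes of ribosomal protein had medians above 0. Proteins of bacterial type had medians of 0.15 in the large subunit (18 of 28 tested genes above 0) and 0.20 in the small subunit (12 of 16). Mitochondria-specific proteins had 0.18 in the large subunit (13 of 21) and −0.11 in the small subunit (3 of 9 above 0). MRPS26 was the highest of those 9, at 0.41 (SE 0.22), and MRPS35 the lowest. In none of these classes did a gene pass the threshold. The split is a list drawn up by hand from general knowledge of these proteins. It counts MRPS30 and MRPS18A with the large subunit and leaves out MRPS18B, MRPS36 and MRPL55, although RefSeq names MRPS18B as mS40 and MRPL55 as bL31.

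Genes that work with the mitochondrial ribosome also had 0 called in either direction. Of 30 genes for its assembly 22 were tested, and 19 of them had fitted values above 0, with a median of 0.22. NGRN, a factor needed for the large subunit RNA, was at 14.4, 14.001 and 13.7 CPM in the control libraries and at 26.4, 27.2 and 39.5 CPM with miR-148a-3p (1.11, SE 0.40, edgeR adjusted p = 0.593). CLPP, the proteolytic subunit of a matrix protease, was at 91.5, 80.5 and 72.8 CPM and at 119.96, 115 and 128 CPM (0.56, SE 0.22, edgeR adjusted p = 0.626). Neither gene's groups overlapped.

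The list of mitochondrial translation factors had lower fitted values in 10 of 14 tested genes, with a median of −0.10. These 14 include LRPPRC, SLIRP, OXA1L and MTFMT, which are not translation factors in the strict sense. TUFM, the elongation factor that brings aminoacyl-tRNA to the ribosome, was at 141, 183 and 179 CPM in the control and at 137, 112 and 102 CPM with miR-148a-3p (−0.50, SE 0.21, edgeR adjusted p = 0.681). All treated values were below the controls. MTFMT, which formylates the initiator tRNA, was at 8.67, 19.8 and 31.9 CPM and at 5.93, 11.8 and 6.59 CPM, with overlap (−1.31, SE 0.56, edgeR adjusted p = 0.681).

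The list of mitochondrial aminoacyl-tRNA synthetases had a median of −0.19, with 8 of 14 tested genes below 0. These 14 include QRSL1, GATB and GATC, which encode amidotransferase subunits and not synthetases. IARS2, for isoleucine, was at 89.6, 101.5 and 106 CPM in the control and at 77.1, 75.7 and 59.3 CPM with the microRNA (−0.47, SE 0.23, edgeR adjusted p = 0.726), without overlap. WARS2, for tryptophan, was at 18.9 ± 7.31 and 8.87 ± 5.30 CPM (SD, n = 3). Its 3 control values reached down to 14.001 CPM and its treated values up to 13.8 CPM.

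Genes for copying, transcribing and processing mitochondrial DNA and RNA had a median of 0.01 over 14 tested genes, 9 of them above 0. LONP1, a matrix protease, was at 25.04, 42.0 and 51.2 CPM in the control and at 52.7, 65.1 and 72.4 CPM with miR-148a-3p (0.68, SE 0.30, edgeR adjusted p = 0.706). PRORP, the nuclease of mitochondrial RNase P, was at 22.5 ± 13.1 and 36.6 ± 8.30 CPM. Of the nuclear regulators, 6 of 8 tested were above 0, with GABPB1, a subunit of an ETS-family factor, at 0.84 (SE 0.49) and PPARGC1B, a coactivator, at 0.95 (SE 0.55). Both had edgeR adjusted p = 0.753 and control means of 10.6 and 8.17 CPM, so few reads stood behind them. The 5 counted ribosomal subunits with other symbols, among them CHCHD1 (0.44, SE 0.26) and PTCD3 (−0.14, SE 0.22), had a median of 0.08.

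Set beside the respiratory chain and the cytosolic ribosome, the mitochondrial ribosomal genes had the larger median. The assembly genes given above had a larger one still, 0.22. Shares of fitted values above 0 were alike, at 62.3% for the mitochondrial ribosomal genes and 62.8% for the respiratory chain genes. The respiratory chain and ATP synthase subunits had a median log2 fold change of 0.08, with 49 of 78 tested genes above 0. The cytosolic ribosomal protein genes had 0.03, with 43 of 81. At an unadjusted p below 0.05, where 3.40% of all genes lay in each direction, 11 cytosolic ribosomal genes were lower and 2 higher. Of the respiratory chain genes 2 were lower and 3 higher. In neither family did a gene pass over all genes tested. The differences between the families were not tested. These lists were chosen with earlier results of the data known.

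**Figure D4:**
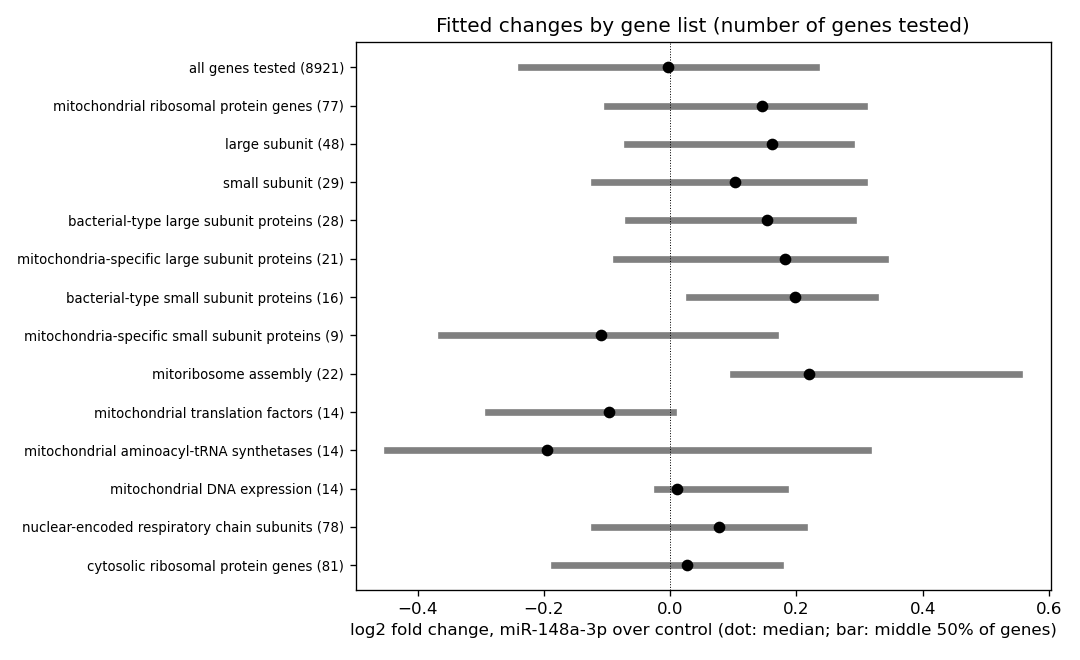
Log2 fold change with miR-148a-3p by gene list, with the number of genes tested in brackets. Dots are medians and bars span the quartiles, and the mitochondrial ribosomal genes have a median of 0.15 and all genes tested one of −0.0039.

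The genes are scattered over 21 chromosomes, with at most 8 on any of them (1, 2 and 17). RefSeq promoter sequences, running from 250 bases before to 50 after the start of transcription, were available for 69 of the 78 genes. The first listed promoter of each gene was searched on both strands for 4 short motifs: GCGCATGC, the core of the NRF1 site, CCGGAAGT, bound by ETS factors, AAGATGGC, the core of the YY1 site, and the E-box CACGTG. No motif holds another within it. NRF1, the ETS factor GABP and YY1 are known as regulators of nuclear genes for mitochondria.

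The YY1 core was the motif that set these promoters most apart in share. It occurred in 20 of 69 (28.99%), against 6.51% of 7301 promoters of tested genes and 3.03% of all 27305. The share was 28.6% in the large and 29.6% in the small subunit. The ETS motif occurred in 11 (15.9%, against 10.3% of tested genes), 9 of them in the large subunit, and the NRF1 core in 6 (8.70%, against 6.03%). The E-box, added to the motifs first planned, was in 6 (8.70%, against 10.6%). These are matches of letters, with no measurement of binding, and the shares were not tested.

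**Figure D5:**
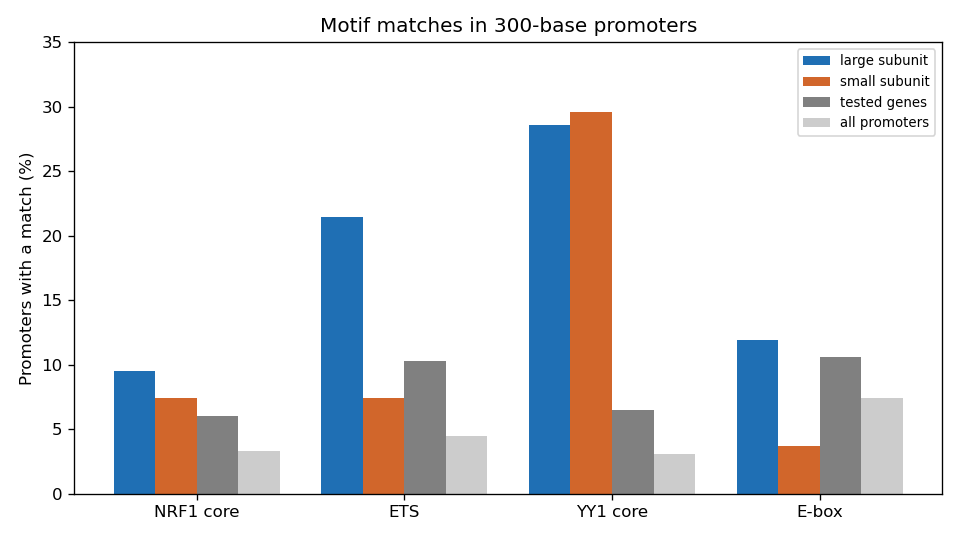
Share of promoters of 300 bases with at least 1 match of each motif, for large and small subunit genes, for all tested genes and for all promoters. The YY1 core is at 28.6% and 29.6% in the 2 subunits and at 6.51% in tested genes.

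In 15 of the 20 promoters the first match lay at or after the start of transcription, and 16 held a match on the strand of the gene. These shares, 75% and 80%, were near those over the 475 promoters of tested genes with a match, 65.5% and 76%. As examples across levels, 30 bases around the match are given for the 3 most and the 3 least abundant genes with a match on the gene's strand after the start. They run 5′ to 3′ on the gene's strand, with the YY1 core in capitals (RefSeq, GRCh38.p14).
MRPS18B, chr6:30617852-30617881, plus strand: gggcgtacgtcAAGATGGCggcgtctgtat
MRPL51, chr12:6493223-6493252, minus strand: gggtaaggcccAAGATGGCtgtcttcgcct
MRPS7, chr17:75261887-75261916, plus strand: cgtggccagccAAGATGGCtgcccccgcag
MRPL38, chr17:75904860-75904889, minus strand: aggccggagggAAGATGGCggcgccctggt
MRPL46, chr15:88467362-88467391, minus strand: tgggagaacgaAAGATGGCggcgcccgtaa
MRPL50, chr9:101398577-101398606, minus strand: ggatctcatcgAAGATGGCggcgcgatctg
The match began 23, 21 and 19 bases after the start in MRPS18B, MRPL51 and MRPS7, and 6, 8 and 23 bases after it in MRPL38, MRPL46 and MRPL50. These examples were picked for a match after the start, so that their positions are alike is no finding. In MRPL32, MRPS12, MRPL52, MRPL47 and MRPL36 the first match lay before the start. The 20 genes with a match had a control median of 55.5 CPM and the 49 without one 67.6 CPM. With miR-148a-3p, 9 of the 20 had fitted values above 0 (median −0.06), and 35 of the 49 (median 0.19), where 49.5% of all genes tested were above 0. No test was made of this difference, and fitted values of other tested genes with the motif were not summarised.

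As among tested genes in general, some of these genes share a promoter region with a neighbour read in the other direction. Of the 69 genes, 26 (37.7%) had a gene starting within 1000 bases upstream on the opposite strand, against 30.9% of tested genes. MRPL46 and MRPS11, 1 protein of each subunit, start 320 bases apart and had control means of 27.0 and 28.8 CPM, with log2 fold changes of 0.20 (SE 0.40) and 0.34 (SE 0.34). MRPL49 starts 49 bases from FAU, which encodes a cytosolic ribosomal protein and was at 1061 CPM in the control (0.35, SE 0.16, edgeR adjusted p = 0.725). MRPL18 starts 210 bases from TCP1, a chaperonin subunit at 277 CPM (0.33, SE 0.21). MRPS12 starts 181 bases from SARS2, the mitochondrial seryl-tRNA synthetase (−0.22, SE 0.43). Of the 13 tested neighbours 9 were above 0, where 49.5% of all genes tested were, and 0 passed the threshold. These 13 include MRPL46 and MRPS11, each counted as the neighbour of the other and both above 0. FAU and TCP1 were far more abundant than the ribosomal genes beside them, while MRPL46 and MRPS11 had similar levels. Genes that share a promoter region thus had unequal levels in some pairs and similar levels in others.

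The spans of 11 of the 78 genes overlap that of a tested gene, and reads may be shared where the overlap lies near a 3' end. Among the 11 are MRPL20 with MRPL20-AS1, MRPS18C with ABRAXAS1 and MRPL49 with SYVN1. MRPL14 with TMEM63B and MRPS7 with GGA3 also belong to them. These 2 pairs start 240 and 273 bases apart in opposite directions, so their overlaps lie near the starts. Pseudogenes listed under their own symbols took few reads, with 9 in all 6 libraries for MRPL45P2, 6 for MRPS31P5, 4 each for MRPL35P1 and MRPL9P1 and 1 for MRPL40P1. Reads of unlisted copies counted under the parent gene's name cannot be told apart from its own.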

How the data were processed

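Raw read counts, one list per messenger RNA library by gene symbol, are what the authors deposited, with no normalization. Symbols without a read are missing from a library's list and were taken as 0. The submitters' processing notes name cutadapt, STAR, Bowtie2 and the build GRCh38. Which tool counted the reads, with what annotation and strand setting, is not given in the sources used here. From 500 ng of RNA per sample, 3' end libraries were made by oligo-dT priming, per the labels' protocols. The small RNA library was not used here.

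The counts of the 6 libraries were modelled in edgeR 4.0.16 (R 4.3.3) with TMM factors and the quasi-likelihood test of treatment alone, after filterByExpr by group kept 8921 of 15659 symbols. Benjamini-Hochberg adjustment ran over all genes tested, with a threshold of 0.05. SE is the absolute log2 fold change over the root of F. With 3 libraries against 3, an exact permutation test cannot go below 0.1, so none was used. Libraries of a group differed by 2.58 to 5.80 times Poisson variance (chi-square per degree of freedom).

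The members and lists were chosen with earlier results of these data known, so no list was tested. Named were the 5 genes of smallest p per direction, the 4 highest and lowest of each subunit, genes of known role, the gene not tested, and 2 genes of smallest p in each related list. Examples for promoters and neighbours, and MRPL32, were chosen after their values were seen. Promoters were matched to RefSeq (GRCh38.p14) by symbol, and 9 members had no entry. Alternatives covered size factors, DESeq2 1.42.0, limma-voom (limma 3.58.1), filters, thinning, the replicate number and each library left out. The edgeR fit in its main setting was tested on simulated counts, and the alternatives were not.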

Additional observations from a re-analysis of the deposited data

How the results depend on the processing

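No mitochondrial ribosomal gene and no gene of the related lists was called under any of the 16 alternatives. The smallest edgeR adjusted p in the family ranged over them from 0.118 (without control replicate 1) to 0.998 (without miR-148a-3p replicate 3). With 1 library left out, the median log2 fold change of the 77 genes lay between 0.10 and 0.21, the large subunit's between 0.03 and 0.24, the small subunit's between 0.03 and 0.15, and small minus large between −0.16 and 0.12. Without control replicate 1 and miR-148a-3p replicate 3 together, an alternative chosen after seeing the data, the family's median was 0.019 and the large subunit's −0.030, and the cause was not tested. Without the 3 most abundant genes of each subunit the control sums were 2628 CPM (large) and 1839 CPM (small), since fewer genes were added. In plain CPM, MRPL33 was at 213.6 CPM and MRPS34 at 306.5 CPM, both a little below their TMM levels. For MRPL33 the shift was larger than its SD of 4.18 CPM, which rests on 3 control libraries.

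Whether the replicate numbers pair the libraries is not settled. In deviations from group means, same-numbered libraries had correlations of 0.133, 0.0930 and −0.0019 over 8921 genes. Differently numbered libraries had correlations from −0.133 to 0.0274. The labels do not say that the numbers mark pairs, and 3 libraries a group are too few to tell. With the replicate block edgeR called 3 genes, 0 of them in the family, whose median was 0.16.

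Signs were followed only for the tested members of the family chosen by p, level or role, among them those of smallest p. Of 478 values for these genes 21 changed sign, all for genes not called. After thinning to the smallest library, MRPL33 was at −0.0043 and MRPS36 at −0.083. Without control replicate 1 and miR-148a-3p replicate 3 together, MRPL33 was at −0.066, MRPS18B at 0.019, MRPS18A at 0.52, MRPL58 at −0.030 and MRPS36 at −0.094. With 1 library left out, the fitted values ranged from −0.91 to 0.070 for MRPL34, −0.079 to 0.12 for MRPL33, −0.48 to 0.16 for MRPL44, −0.22 to 0.099 for MRPS18B, −0.043 to 0.26 for MRPS5, −0.083 to 0.23 for MRPS17, −0.27 to 0.32 for MRPS18A and −0.11 to 0.29 for MRPS36. The tested genes under 25 CPM had 3 to 50 reads per library.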
